A study of Mus musculus with 16 samples.

Results

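The genes described are 10 genes of elastic fibres and microfibrils: elastin (Eln), the fibrillins Fbn1 and Fbn2, the fibulins Fbln1, Fbln5, Efemp1 and Efemp2, and the microfibril-associated proteins Mfap2, Mfap4 and Mfap5. They were chosen by gene name from the 54532 genes of the deposited table, and each name matched 1 gene. Bulk RNA had been sequenced from the subcutaneous fat pad of the groin, the inguinal white adipose tissue (iWAT), of 16 male mice that entered the experiments at 8 to 10 weeks of age. Has2_TG mice carried Apn-rtTA and TRE-Has2, and PH20_TG mice carried Apn-rtTA and TRE-PH20. Has2_WT and PH20_WT were the littermates of each line with Apn-rtTA alone, and each of the 4 groups had 4 mice. All 16 mice had 5 days of chow with 200 mg/kg doxycycline, so the controls shared both the drug and rtTA. rtTA is a transcription factor that doxycycline switches on, and here the adiponectin promoter drove it, so that Has2, a hyaluronan synthase, or PH20, a hyaluronidase encoded by Spam1, was to be made in adipocytes. The RNA came from whole tissue, and any change in another cell type was therefore read without a transgene aimed at that cell. In such bulk RNA, fewer cells of a type and less RNA per cell cannot be told apart. The design asked how more or less hyaluronan in the fat pad went with the expression of other genes.

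Elastic fibres give tissues recoil. They have a core of crosslinked elastin and a sheath of microfibrils, which are built from fibrillin and also store latent growth factors of the TGF-β family. Fibulins and microfibril-associated proteins bind fibrillin and elastin and guide their assembly, lysyl oxidases crosslink the elastin, and fibroblasts and smooth muscle cells are known as the main makers of these proteins.

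The libraries held 14421692 to 26751729 reads on genes. Has2 FPKM was 1.86 to 3.24 in Has2_TG and 0.417 to 0.806 in Has2_WT. It was also 3.32 in PH20_TG1 and 3.26 in PH20_TG4, above every Has2_TG library, but 0.380 in PH20_TG2 and 0.0990 in PH20_TG3. The Has2 level alone therefore did not mark the Has2 line. In PH20_TG, Spam1 had 0, 6, 12 and 5 reads in replicates 1 to 4, and it had 0 reads in the other 12 libraries, so the label of PH20_TG1 could not be checked by its transgene. Markers of B cells were high in 4 control libraries, Has2_WT1, Has2_WT2, PH20_WT1 and PH20_WT3, with a summed FPKM of 113 to 304 against at most 6.02 in the other 12, and T cell and lymph node markers were high in the same 4. The summed FPKM of 8 adipocyte markers was 4253 to 10155 across the 16 libraries. No 2 libraries were alike within sampling noise.

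The genes differed widely in level. On the FPKM scale, which is per kilobase of gene length, Efemp1 had the highest mean over the 16 libraries, 56.2, followed by Fbn1 at 27.6, Mfap5 at 22.3, Eln at 14.1 and Efemp2 at 13.1. Lower levels were measured for Mfap2 (9.65), Fbln1 (7.14), Fbln5 (6.40) and Mfap4 (2.11), and the lowest for Fbn2 (0.0687). Efemp1 was above Fbn1 in 16 of 16 libraries and Fbln5 above Mfap4 in 16 of 16, but Fbn1 was above Mfap5 in only 9 of 16 and Fbln1 above Fbln5 in 10 of 16, so these neighbours were not set apart beyond the spread between libraries. Efemp1 made up 35.9% of the summed FPKM of the 10 genes, averaged over libraries, with a range of 24.4% to 43.1%. The summed FPKM was 82.1 ± 29.3 (SD, n = 4) in Has2_WT, 207 ± 56.1 (SD, n = 4) in Has2_TG, 149 ± 56.2 (SD, n = 4) in PH20_WT and 196 ± 150.2 (SD, n = 4) in PH20_TG.

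**Figure D1:**
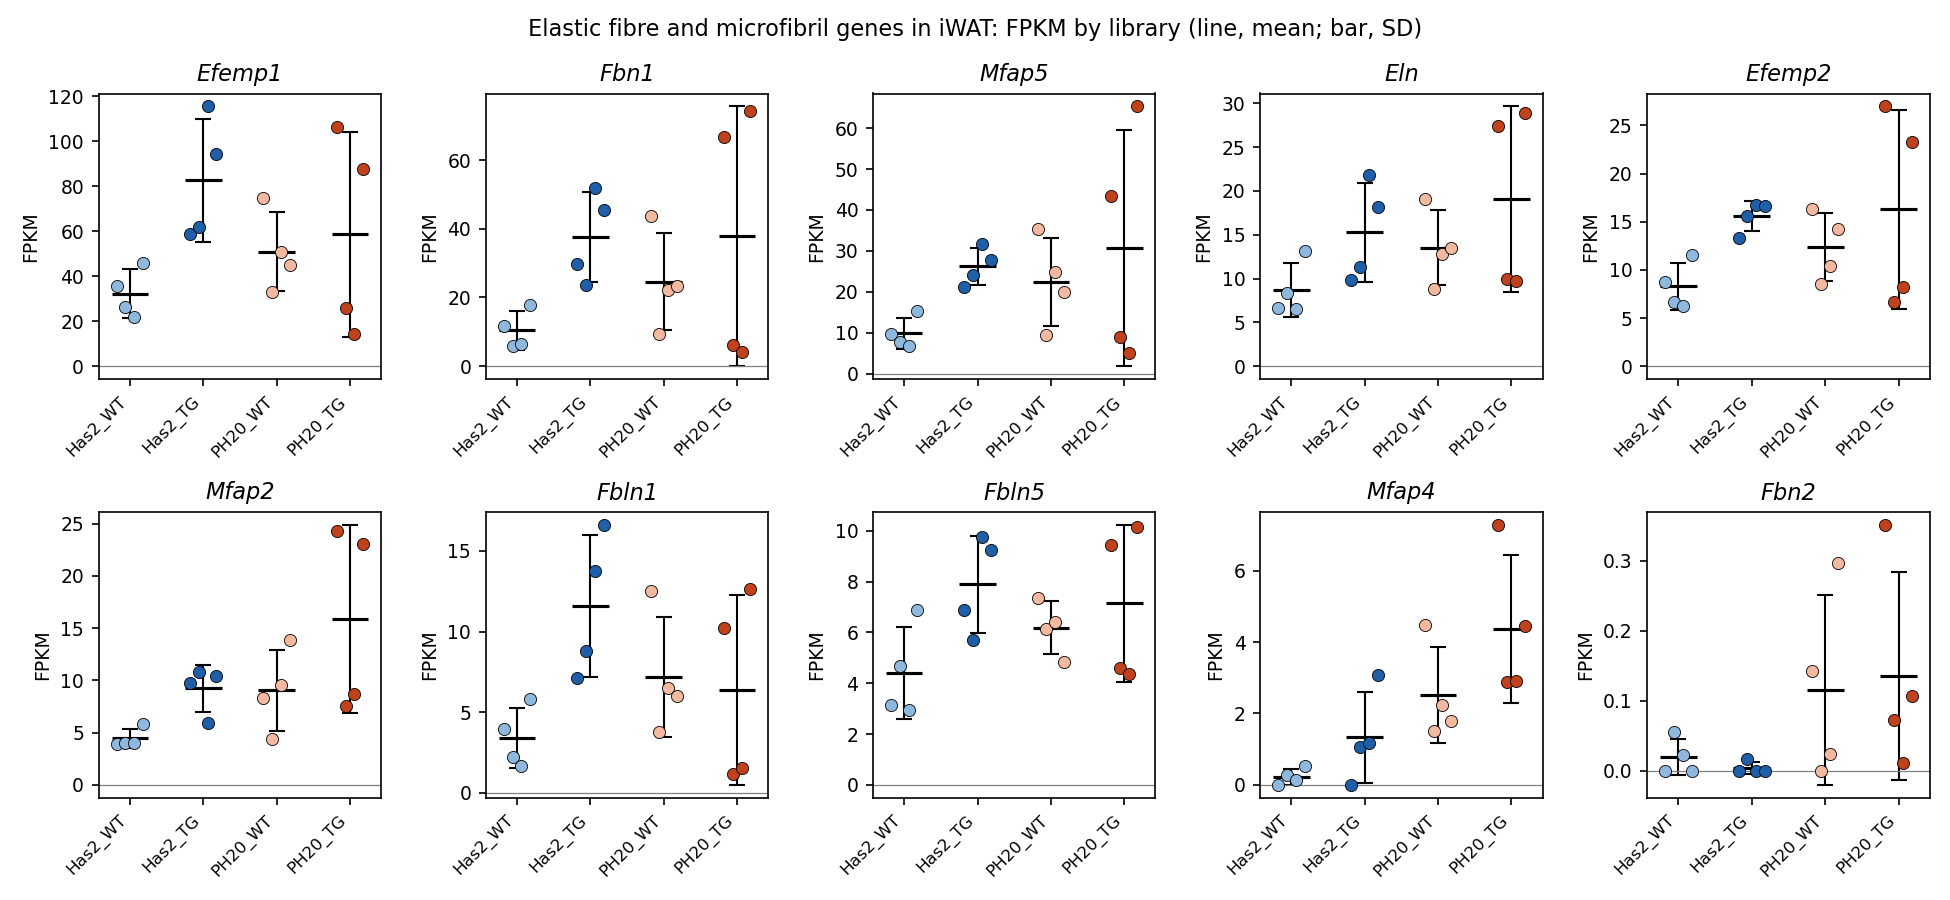
FPKM of each of the 10 genes (y axis, linear, a separate scale for each gene) in the 4 groups (x axis), with 1 point per library, a line at the mean and a bar of 1 SD on each side. The Has2_TG libraries of Fbn1 lay between 23.6 and 51.8, above the 5.79 to 17.8 of Has2_WT, and the PH20_TG libraries split into a high and a low pair.

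In the Has2 study, 8 of the 10 genes were upregulated, and the other 2, Mfap4 and Fbn2, had too few reads for the same test. Among the 8, Fbn1 had the highest fold change, from 10.4 ± 5.62 (SD, n = 4) FPKM in Has2_WT to 37.6 ± 13.1 (SD, n = 4) in Has2_TG, and Eln had the lowest on the log2 scale, from 8.66 ± 3.09 to 15.3 ± 5.67 (SD, n = 4 each). A gene was called changed at an unadjusted p-value under 0.05 in limma's moderated test, the threshold of the study's methods, and only genes averaging 50 reads or more per library were tested. Of the 10 genes, 8 reached that level, each with at least 83 reads in every one of the 8 libraries, and all 8 were upregulated, while 6.25% of the 12606 genes tested were called higher and 3.75% lower. The median log2 fold change of the 8 was 1.19, against -0.03 for the whole set of 12606. For Fbn1, Fbln1, Efemp1, Efemp2, Mfap2 and Mfap5, 6 of the 8, no Has2_WT library reached the level of any Has2_TG library, and 6.19% of all genes had groups without overlap. After Benjamini-Hochberg adjustment over the 12606 genes, limma called 0 of the 8, with 0.103% of all genes called higher. The lowest adjusted p of the 8 was 0.0687 for Mfap5, and with voom weights it was 0.0361, where 0.381% of all genes were called higher after adjustment. Without Has2_WT4, the control library with the highest level of each of the 8, the adjusted p was under 0.05 for 5 of them, Efemp1, Efemp2, Fbln1, Fbn1 and Mfap5, against 1.09% of all genes in that fit. Without any other single library of the Has2 study, 0 of all genes tested were called higher after adjustment. The same held without a minimum of reads, from a mean FPKM of 1 upwards, without a variance trend, with a replicate block and in one fit of all 16 libraries.

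Eln (ENSMUSG00000029675, chromosome 5 of GRCm38, 134702593 to 134747323, minus strand) encodes tropoelastin, the subunit of the elastic core. Its FPKM was 6.64, 8.32, 6.54 and 13.1 in Has2_WT1 to Has2_WT4 and 9.80, 11.4, 21.8 and 18.2 in Has2_TG1 to Has2_TG4. The 2 groups overlapped, since Has2_WT4 lay above Has2_TG1 and Has2_TG2. The log2 fold change was 0.80, with an SE of 0.31 (limma adjusted p = 0.416). The call was lost without Has2_WT1, Has2_WT3, Has2_TG3 or Has2_TG4 (log2 fold change 0.60 to 0.69) and without the 2 control libraries rich in B cell markers (0.64, limma adjusted p = 0.662).

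Fbn1 (ENSMUSG00000027204, chromosome 2, 125300594 to 125507993, minus strand) encodes fibrillin-1, the main protein of microfibrils, which is mutated in Marfan syndrome. FPKM was 11.8, 5.79, 6.30 and 17.8 in the Has2_WT libraries and 29.9, 23.6, 51.8 and 45.4 in the Has2_TG libraries, in replicate order. Every Has2_TG library was above every Has2_WT library, and the ratio of the group means was 3.61. The log2 fold change was 1.93, with an SE of 0.38 (limma adjusted p = 0.0841). The exons of Fbn1 share 20.1% of their bases with those of Gm9913 on the opposite strand, and reads of these genes cannot be told apart where the strand was not counted. Fbn2, the fibrillin best known from development, was close to absent in the Has2 study. It had 10 and 4 reads in Has2_WT2 and Has2_WT3, 3 reads in Has2_TG2 and 0 reads in the other 5 libraries, where 0 reads allow up to 3 reads, or an FPKM of up to 0.0153. Its level was not tested by limma at that depth, and the exact permutation test gave p = 0.429 (two-sided, n = 4 per group).

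Fibulins are small glycoproteins that bind elastin, fibrillin and basement membrane proteins. Fbln1 (ENSMUSG00000006369, chromosome 15, 85205949 to 85286535, plus strand) encodes fibulin-1, and its FPKM was 3.98, 2.19, 1.69 and 5.80 in Has2_WT and 7.09, 8.77, 13.8 and 16.6 in Has2_TG. All 4 Has2_TG libraries were higher, with a ratio of the group means of 3.39 and a log2 fold change of 1.81 (SE 0.40, limma adjusted p = 0.105). Efemp1 (ENSMUSG00000020467, chromosome 11, 28853204 to 28926743, plus strand) encodes fibulin-3, the most abundant transcript of the 10. Efemp1 FPKM was 35.6, 26.2, 21.7 and 45.8 in Has2_WT and 58.9, 61.7, 116 and 94.5 in Has2_TG. These groups did not overlap either, and the log2 fold change was 1.35, with an SE of 0.29 (limma adjusted p = 0.0906).

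Fbln5 (ENSMUSG00000021186, chromosome 12, 101746565 to 101819055, minus strand) encodes fibulin-5, which tethers elastin to integrins and lysyl oxidases. Its FPKM was 3.12, 4.66, 2.94 and 6.87 in Has2_WT and 6.87, 5.72, 9.74 and 9.24 in Has2_TG, and Has2_WT4 lay within the Has2_TG range. The log2 fold change of Fbln5 was 0.88 (SE 0.30, limma adjusted p = 0.331), and the call was lost (0.76, limma adjusted p = 0.575) without the 2 control libraries rich in B cell markers. Efemp2 (ENSMUSG00000024909, chromosome 19, 5473973 to 5481853, plus strand) encodes fibulin-4, which brings lysyl oxidase to tropoelastin. FPKM of Efemp2 was 8.75, 6.67, 6.27 and 11.6 in Has2_WT and 13.4, 15.6, 16.7 and 16.7 in Has2_TG. The Has2_TG libraries were close to each other, with a coefficient of variation of 10.1% against 29.2% in Has2_WT, and did not overlap with the controls. Its log2 fold change was 0.93, with an SE of 0.21 (limma adjusted p = 0.105).

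Because Efemp1 had the highest level and Fbln1 was the one gene called when the responses of the studies were compared, the 250 bases before their transcription starts are given here from RefSeq (GRCm38.p6), 5′ to 3′ on the plus strand, at chr11:28852955-28853204 for Efemp1 and chr15:85205699-85205948 for the first of the Fbln1 starts. Capitals mark motifs, searched on both strands. The search took GGGCGG as the GC box. It took TGANTCA, with any base at N, as a loose pattern for AP-1, a factor of growth and stress signals. The letters CAGACA stood for the SMAD-type motif of TGF-β signalling.
Efemp1: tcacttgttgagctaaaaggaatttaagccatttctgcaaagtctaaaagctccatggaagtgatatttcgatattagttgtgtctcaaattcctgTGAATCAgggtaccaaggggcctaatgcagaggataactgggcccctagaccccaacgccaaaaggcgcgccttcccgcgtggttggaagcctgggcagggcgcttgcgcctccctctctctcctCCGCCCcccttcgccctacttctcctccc
Fbln1: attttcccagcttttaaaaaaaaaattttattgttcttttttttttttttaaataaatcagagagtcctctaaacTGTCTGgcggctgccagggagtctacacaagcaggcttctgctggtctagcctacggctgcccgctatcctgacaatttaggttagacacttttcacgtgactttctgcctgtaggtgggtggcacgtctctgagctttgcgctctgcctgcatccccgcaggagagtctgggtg
The Efemp1 window holds 1 match of the loose AP-1 pattern, TGAATCA, and 1 GC box, and the Fbln1 window holds 1 SMAD-type motif. Of the 10 genes, 6 had a promoter in the table (Fbn1, Fbln1, Fbln5, Efemp1, Efemp2 and Mfap2), with 11 windows for alternative starts, some of which overlap. The Fbn1 window lay within exons of the gene model. A GC box was found in 8 of the 11 windows, against 32.7% of all 32851 windows, and each of the 6 genes had it in at least 1 window. GC content was 46.4% to 78.8% in the 11 windows, against a median of 52.4% over all windows. Whether GC content accounts for the GC boxes was not tested. The AP-1 pattern was in 1 of the 11 windows against 6.75% of all, and the SMAD-type motif in 4 of the 11 against 17.1%. Also searched were the TATA box TATAAA (0 of 11 against 12.4%) and the CCAAT box (2 of 11 against 33.8%). The TEAD site GGAATG was in 1 of 11 against 12.6%. These are matches of letters and not measured binding sites.

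The microfibril-associated proteins MAGP-1 and MAGP-2, encoded by Mfap2 and Mfap5, decorate the fibrillin microfibril. Mfap2 (ENSMUSG00000060572, chromosome 4, 141010418 to 141015984, plus strand) had an FPKM of 3.94, 3.98, 4.04 and 5.79 in Has2_WT and 9.79, 10.8, 5.91 and 10.4 in Has2_TG. The groups stayed apart, narrowly between Has2_WT4 and Has2_TG3, and the log2 fold change was 1.02, with an SE of 0.23 (limma adjusted p = 0.108). Mfap5 (ENSMUSG00000030116, chromosome 6, 122505845 to 122529290, plus strand) had an FPKM of 9.77, 7.73, 6.71 and 15.3 in Has2_WT and 21.1, 24.2, 31.8 and 27.7 in Has2_TG. Its lowest Has2_TG library was above its highest control, and its log2 fold change of 1.45 (SE 0.25, limma adjusted p = 0.0687) had the smallest p of the 8 tested genes.

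Mfap4 (ENSMUSG00000042436, chromosome 11, 61485431 to 61488900, plus strand) encodes a fibrinogen-like glycoprotein that binds collagen and elastin. In the Has2 study it had 0, 9, 4 and 19 reads in Has2_WT and 0, 34, 42 and 124 reads in Has2_TG, which is below the minimum for the limma test. In FPKM these were 0, 0.269, 0.123 and 0.518 in Has2_WT and 0, 1.07, 1.17 and 3.09 in Has2_TG. Has2_WT1 and Has2_TG1 were both at 0 reads, which allows up to 3 reads, or an FPKM of 0.0573 and 0.0619. The difference of the group means, 1.10 FPKM, was within the spread (exact permutation p = 0.143, two-sided, n = 4 per group).

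In the PH20 study, no gene of the 10 was called in either direction, and the 4 PH20_TG libraries lay far apart. PH20_TG1 and PH20_TG4 had the 2 highest levels of the group for all 9 tested genes, and PH20_TG2 and PH20_TG3 had the 2 lowest. Of the 10 genes, 9 averaged 50 reads or more, and limma called 0 of the 9 at an unadjusted p under 0.05, also with voom weights, while 3.20% of the 12532 genes tested were called higher and 3.39% lower. For each of the 9, PH20_TG and PH20_WT overlapped, whereas 4.54% of all genes had groups without overlap. After adjustment 0.00% of all genes were called higher. The median log2 fold change of the 9 genes was 0.12, against 0.01 for the whole set of 12532. The same pairs differed in Has2 itself, whose FPKM was 3.32 in PH20_TG1 and 3.26 in PH20_TG4 but 0.380 in PH20_TG2 and 0.0990 in PH20_TG3.

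Eln FPKM was 19.1, 8.79, 12.9 and 13.4 in PH20_WT and 27.5, 9.96, 9.76 and 28.9 in PH20_TG. The low pair of PH20_TG lay within the control range and the high pair above it, and the log2 fold change was 0.35 (95% interval -0.59 to 1.29). Fbn1 showed the widest split of the 9 tested genes, with 43.7, 9.30, 22.3 and 23.2 FPKM in PH20_WT and 66.6, 6.12, 4.15 and 74.3 in PH20_TG. The highest PH20_TG library was 17.9 times the lowest, the coefficient of variation was 100.1% against 57.7% in PH20_WT, and the log2 fold change of -0.18 had an interval of -2.41 to 2.06. That interval holds the change of 1.93 measured in the Has2 study, so these 8 libraries did not exclude a change of that size. Fbn2 had 34, 0, 5 and 49 reads in PH20_WT and 63, 15, 2 and 16 reads in PH20_TG, with a highest FPKM of 0.351 (exact permutation p = 0.800, two-sided, n = 4 per group).

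**Figure D2:**
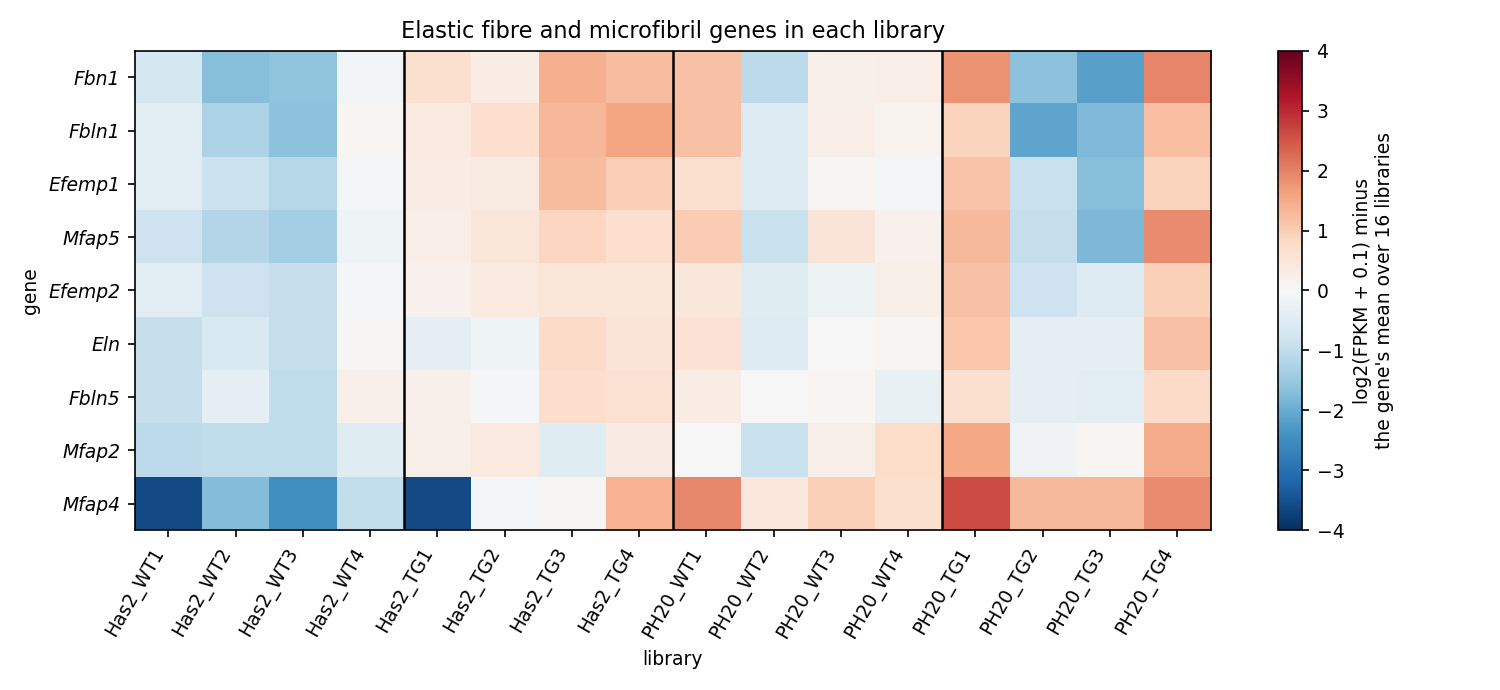
Level of the 9 genes tested in at least 1 study (rows) in the 16 libraries (columns, with black lines between groups), as log2(FPKM + 0.1) minus the gene's mean over the 16 libraries. Has2_WT1 to Has2_WT3 are blue in all rows, and PH20_TG1 and PH20_TG4 are red in all rows while PH20_TG2 and PH20_TG3 are blue in most.

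The fibulins split in the same way. Fbln1 was at 12.5, 3.80, 6.52 and 6.01 FPKM in PH20_WT and at 10.2, 1.19, 1.52 and 12.6 in PH20_TG, a log2 fold change of -0.71 (95% interval -2.48 to 1.05). Efemp1 was at 74.7, 33.1, 51.0 and 44.9 in PH20_WT and at 107, 25.7, 14.4 and 87.8 in PH20_TG, with a log2 fold change of -0.17 (95% interval -1.57 to 1.22). In each of the fibulins the low pair of PH20_TG lay under every PH20_WT library, as it did for Fbn1 and Mfap5. Fbln5 was the least spread of the fibulins, at 7.36, 6.12, 6.41 and 4.83 in PH20_WT and 9.44, 4.61, 4.35 and 10.2 in PH20_TG (log2 fold change 0.12, 95% interval -0.57 to 0.80). Efemp2 was at 16.3, 8.54, 10.4 and 14.2 in PH20_WT and at 27.0, 6.68, 8.26 and 23.3 in PH20_TG (log2 fold change 0.19, 95% interval -0.86 to 1.24).

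Of the microfibril-associated genes, Mfap5 was also widely split, with 35.4, 9.39, 24.9 and 19.9 FPKM in PH20_WT and 43.3, 8.94, 5.01 and 65.3 in PH20_TG (log2 fold change -0.09, 95% interval -1.92 to 1.74). For Mfap2, the values were 8.30, 4.41, 9.59 and 13.8 in PH20_WT and 24.3, 7.51, 8.71 and 23.0 in PH20_TG, and the low pair stayed within the control range (log2 fold change 0.72, 95% interval -0.35 to 1.79). Mfap4 came nearest to the threshold. It was at 4.48, 1.52, 2.24 and 1.78 FPKM in PH20_WT and at 7.29, 2.88, 2.90 and 4.46 in PH20_TG, so that every PH20_TG library was above the 3 controls other than PH20_WT1. Its log2 fold change was 0.80, with an SE of 0.39 (limma adjusted p = 0.731), and it passed the unadjusted threshold when PH20_WT1 was left out (1.11, limma adjusted p = 0.870).

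**Figure D3:**
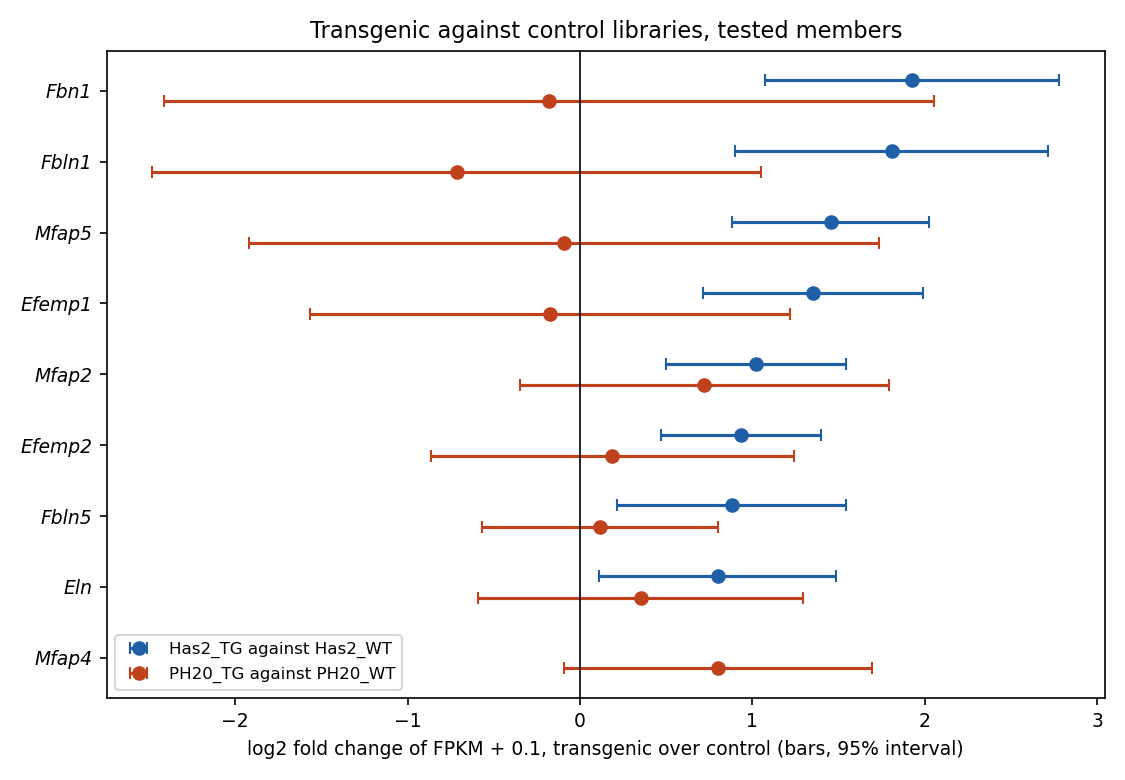
Log2 fold change of FPKM + 0.1 (x axis), transgenic over control, for the 9 tested genes (y axis) in the Has2 study (blue) and the PH20 study (red), with limma's 95% intervals. The Has2 intervals all lie above 0, from 0.80 for Eln to 1.93 for Fbn1, and all PH20 intervals include 0.

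Whether the 2 responses differed was tested in a fit of all 16 libraries. Fbln1 was the only gene of the 9 called, with a Has2 effect minus PH20 effect of 2.52 on the log2 scale (SE 0.94, limma adjusted p = 0.606), where 4.03% of 12593 genes were called in that direction. The call was lost, at 2.03 (limma adjusted p = 0.866), without the 4 control libraries rich in B cell markers. For Efemp1 the difference was 1.53 (SE 0.72, 95% interval -0.018 to 3.07, limma adjusted p = 0.652), and for Fbn1 its interval was -0.31 to 4.52 (limma adjusted p = 0.692), neither of them past the threshold. Mfap2 and Eln had the smallest differences, 0.30 (95% interval -0.88 to 1.48) and 0.45 (95% interval -0.73 to 1.62). Without PH20_TG1 or without PH20_TG4, 5 of the 9 genes were called, against 6.04% and 5.02% of all genes in those fits.

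The control groups differed in the means of these genes, though 0 of 12593 genes tested were called after adjustment. All 9 genes had a lower mean in Has2_WT than in PH20_WT, and Mfap4 and Mfap2 were called, against 4.66% of all genes called lower. Mfap4 was tested here only because of its reads in the PH20 study, and its 4 Has2_WT libraries, at 0 to 0.518 FPKM, lay below the 1.52 to 4.48 of PH20_WT, as 3.20% of all genes did without overlap. With 1 Has2_WT library at 0 reads, the size of its log2 difference depended on the pseudocount, at -3.16 with 0.1 and -1.46 with 1 (limma adjusted p = 0.303 and adjusted p = 0.283), and it is not a bound. Mfap2 differed by -0.92 (SE 0.39, limma adjusted p = 0.454). The Mfap2 call was lost without any 1 of 6 libraries (Has2_WT1, Has2_WT2, Has2_WT3, PH20_WT1, PH20_WT3 or PH20_WT4), and both calls were lost without the 4 control libraries rich in B cell markers, where Mfap4 differed by -2.24 (limma adjusted p = 0.784) and Mfap2 by -0.68 (limma adjusted p = 0.878). Line, litter and any batch cannot be told apart in this comparison.

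In the Has2 libraries Eln rose less than Fbn1, though the difference did not pass adjustment. The ratio of Eln to Fbn1 FPKM within a library was 0.564, 1.44, 1.04 and 0.737 in Has2_WT and 0.328, 0.483, 0.422 and 0.400 in Has2_TG. The groups did not overlap, and the mean log2 ratio fell by 1.13 (exact permutation p = 0.0286, two-sided, n = 4 per group, adjusted p = 0.171 over 6 comparisons). A p-value of 0.0286 is the smallest that 4 libraries against 4 can give. In PH20_TG the ratio was 0.412, 1.63, 2.35 and 0.389, highest in the libraries with the least Fbn1, and the difference of 0.54 in mean log2 ratio was within the spread (exact permutation p = 0.457, n = 4 per group). The ratio of the fibulins Efemp1 and Efemp2 was 3.47 to 4.07 in Has2_WT and 3.97 to 6.92 in Has2_TG, a difference of 0.41 in mean log2 ratio (exact permutation p = 0.0571, n = 4 per group). The Mfap5 to Mfap2 ratio differed by 0.43 in the Has2 study and by -0.82 in the PH20 study, both within the spread (exact permutation p = 0.257 and p = 0.229, n = 4 per group).

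The levels followed the markers of adipocyte progenitors and fibroblasts. A score was taken as the mean log2(FPKM + 0.1) of 10 such markers (Pdgfra, Dpp4, Pi16, Cd34, Ly6a, Fap, Cd55, Icam1, Thy1 and Cd248). It was 2.87 to 3.84 in Has2_WT and 4.19 to 4.75 in Has2_TG. Of the 10 markers, 6 were upregulated in Has2_TG and 0 were called lower, against 6.25% and 3.75% of all genes. The median log2 fold change of the 10 was 1.37, and Icam1 was at -0.46. Among the controls, Thy1 and Icam1 were highest in the libraries rich in B cell markers. Thy1 FPKM was 39.2 and 22.9 in Has2_WT1 and Has2_WT2, and 59.5 and 29.5 in PH20_WT1 and PH20_WT3. In the other controls it was 6.71 to 14.8. How far this bears on the score and on fits that use it was not tested. With the score as a covariate, limma called 1 of the 8 genes higher in the Has2 study, Mfap2 (1.11, limma adjusted p = 0.403), against 7.43% of all genes, and Fbn1 was at 0.31 (limma adjusted p = 0.776). The score did not overlap between these groups, so score and transgene cannot be told apart there. In PH20_WT the score was 3.26 to 5.04 and in PH20_TG 2.50 to 4.98, with the 2 lowest values in PH20_TG2 and PH20_TG3. With it as a covariate, 6 of the 9 genes were called higher in PH20_TG, against 5.27% of all genes in that fit, namely Eln (0.61, limma adjusted p = 0.198), Mfap4, Mfap2, Fbn1, Efemp2 and Mfap5.

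Over the 16 libraries, the correlation with the score was closest for Fbn1, with r = 0.974 and rho = 0.926, and r was 0.982 in the PH20 study and 0.966 in the Has2 study. Fbln1, Mfap5 and Efemp1 had an r of 0.954 to 0.955, and Efemp2 of 0.899, each with a permutation p of 1e-05, the smallest that 100000 permutations can give. The Eln correlation was looser (r = 0.798, rho = 0.812, permutation p = 0.000220, adjusted p = 0.000330 over 9 relations), like that of Fbln5 (r = 0.767, rho = 0.826). Mfap2 had r = 0.595 (rho = 0.556, permutation p = 0.0152), and Mfap4 had r = 0.317 (rho = 0.461, permutation p = 0.231). Within the Has2 and PH20 studies, r was 0.716 and 0.642 for Mfap2 and 0.512 and 0.551 for Mfap4. Without PH20_TG2 and PH20_TG3, the 2 libraries farthest from the median score, r was 0.965 for Fbn1, 0.874 for Eln, 0.761 for Mfap2 and 0.639 for Mfap4. These 9 relations were computed after the spread of PH20_TG had been seen. The permutations moved libraries freely across the 4 groups, so their p-values also count differences between groups and studies. They do not measure the relation within a group.

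**Figure D4:**
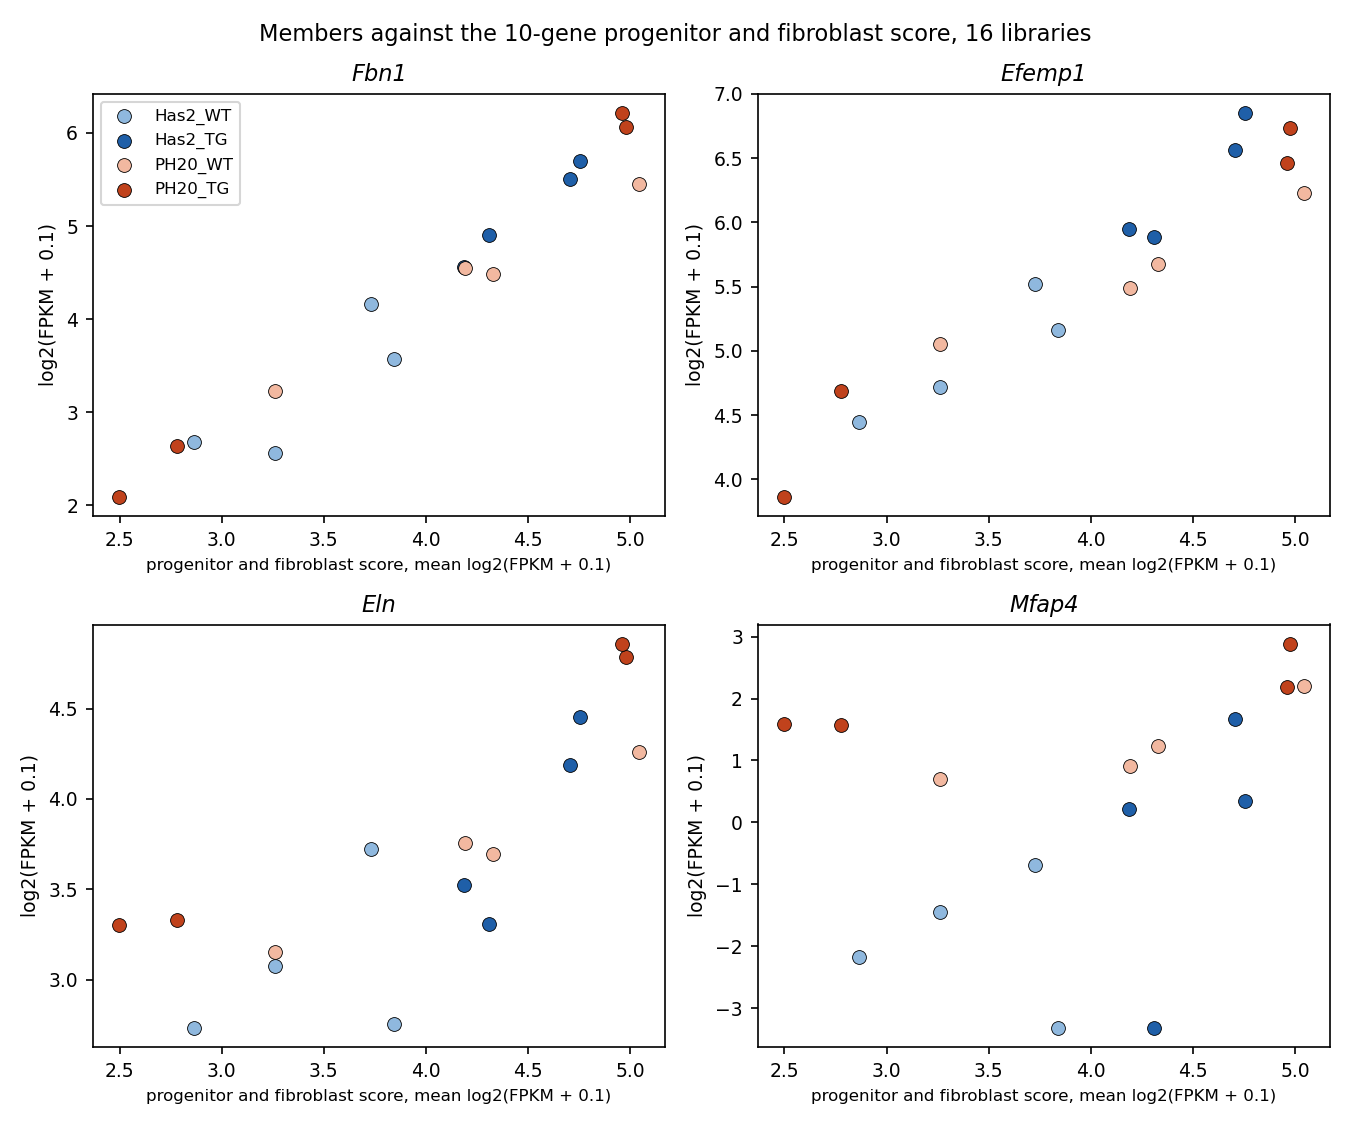
Log2(FPKM + 0.1) of Fbn1, Efemp1, Eln and Mfap4 (y axes) against the progenitor and fibroblast score (x axis, mean log2(FPKM + 0.1) of 10 markers), with 1 point per library coloured by group. Fbn1 follows the score closely (r = 0.974). Mfap4 does so less over the 16 libraries (r = 0.317), with PH20_TG2 and PH20_TG3 at low scores but above every Has2_WT library. Within the Has2 and PH20 studies, r of Mfap4 was 0.512 and 0.551.

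Markers of other cell types moved as well. Over all genes tested, 6.25% were called higher and 3.75% lower in Has2_TG, and 3.20% and 3.39% in PH20_TG. In the Has2 study, 6 of 7 macrophage markers were upregulated, with a summed FPKM of 174 to 349 in Has2_WT and 351 to 539 in Has2_TG. In PH20_TG the macrophage sum was 902 and 466 in PH20_TG1 and PH20_TG4 and 132 and 240.2 in PH20_TG2 and PH20_TG3, the same pairs as for the elastic fibre genes. Of the adipocyte markers 0 of 8 passed the test (lowest adjusted p by limma 0.841), and of 5 tested smooth muscle markers 0 rose and 1 fell, Myh11. In the PH20 study, 7 of 7 tested skeletal muscle markers were downregulated in PH20_TG, with a summed FPKM of 207 to 862 in PH20_WT and 9.05 to 245 in PH20_TG, and 4 of 7 B cell markers were downregulated. B cell markers summed to 2.06 to 286 FPKM in Has2_WT and 1.66 to 3.22 in Has2_TG. Without the 2 B cell-rich controls, 6 of the 8 genes were still called higher in Has2_TG (all but Eln and Fbln5), against 5.96% of all genes, with Fbn1 at 1.75 (limma adjusted p = 0.259). The part of macrophage RNA in the levels of the 10 genes was not tested, and that of skeletal muscle RNA only by a marker score as a covariate. With the muscle score, 8 of 8 were still called higher in the Has2 study, against 6.32% of all genes. In the PH20 study it turned the log2 fold changes of Efemp1, Fbn1, Mfap5 and Fbln1 from negative to positive.

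The genes most like Eln, Fbn1 and Mfap5 were sought by the correlation of log2(FPKM + 0.1) over the 16 libraries after each group's mean was removed, so that differences between groups did not enter. Eln was most like Col5a1 (r = 0.986), a collagen of fibril nucleation, the crosslinking enzyme Loxl1 (r = 0.970) and Col6a1 (r = 0.967), among 12592 genes. Fbn1 was most like Scara5 (r = 0.996), fibronectin Fn1 (r = 0.995) and Ace (r = 0.993). For Mfap5 these were Scara5 (r = 0.987), Ntn4 (r = 0.979) and Dpp4 (r = 0.979), and Fbn1 came at rank 10 (r = 0.976). Eln and Fbn1 were less alike, with r = 0.906, and Mfap4 was far from both (r = 0.649 with Eln and 0.361 with Fbn1). These correlations describe 16 libraries, and how far they rest on the split within PH20_TG was not tested.

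Genes that act on elastic fibres were grouped by role. Of 5 lysyl oxidases, which crosslink elastin and collagen, 4 were upregulated in Has2_TG (all but Lox) and 0 fell. Over all genes tested, 6.25% were called higher and 3.75% lower in the Has2 study, and 3.20% and 3.39% in the PH20 study. Loxl1, known for its part in elastin renewal, rose from 28.8 ± 6.99 (SD, n = 4) to 66.3 ± 18.9 (SD, n = 4) FPKM without overlap (log2 fold change 1.18, SE 0.24, limma adjusted p = 0.0841). Loxl2 rose from 6.90 ± 3.26 to 16.7 ± 6.33 FPKM (SD, n = 4 each) with some overlap (log2 fold change 1.28, SE 0.34). In PH20_TG 0 of the 4 tested lysyl oxidases passed limma's test (lowest adjusted p = 0.731), with Loxl1 at 58.7 ± 26.7 against 45.2 ± 16.4 FPKM (SD, n = 4 each).

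Among 13 tested other fibulins, emilins, microfibril-associated and matrix proteins, 3 were upregulated in Has2_TG and 0 fell. Over all genes tested, 6.25% were called higher and 3.75% lower. The small proteoglycan decorin, Dcn, rose from 69.7 ± 29.7 to 198 ± 46.6 FPKM (SD, n = 4 each, log2 fold change 1.58, SE 0.31), and Emilin2, of the elastin microfibril interface, from 9.58 ± 5.23 to 30.1 ± 7.29 (SD, n = 4 each, log2 fold change 1.79, SE 0.38). Both lay apart from the controls in all 4 libraries, and the other gene was Vcan. In PH20_TG, Fbln7 was called higher and Vtn lower among the 13 (limma adjusted p = 0.664 each). In that study, 3.20% of all genes were called higher and 3.39% lower. Of 4 latent TGF-β binding proteins, some of which dock growth factor on fibrillin, 1 was upregulated in Has2_TG, Ltbp1, from 2.49 ± 0.783 to 7.61 ± 2.47 FPKM (SD, n = 4 each, log2 fold change 1.57, SE 0.30). Ltbp2 was at 9.77 ± 1.34 in Has2_WT and 7.88 ± 1.35 in Has2_TG (SD, n = 4 each, log2 fold change -0.31, limma adjusted p = 0.617), and in the PH20 study 0 of the 4 passed limma's test.

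Of 8 tested ADAMTS and ADAMTS-like genes, several of which bind or process fibrillin, 3 were upregulated in Has2_TG: Adamtsl1, Adamtsl4 and Adamtsl5. Over all genes tested, 6.25% were called higher in the Has2 study. Adamtsl5 rose from 3.47 ± 0.131 to 6.50 ± 1.38 FPKM and Adamtsl1 from 0.712 ± 0.290 to 1.88 ± 0.567 (SD, n = 4 each), without overlap. Proteases that can cut elastin also rose, 4 of 8 tested, and the gelatinase Mmp2 went from 40.1 ± 18.4 to 109 ± 38.5 FPKM (SD, n = 4 each, log2 fold change 1.48, SE 0.34), with Mmp9 at 0.98 (SE 0.27) on the log2 scale. The other proteases that rose were Mmp14 and Ctsk. Of 8 tested receptors of elastin and fibrillin, by contrast, 0 were called by limma in Has2_TG (lowest adjusted p = 0.608), among them Glb1 at 0.33 and Itgav at 0.40 on the log2 scale. In PH20_TG, 1 of 8 receptors was called higher, Glb1, the gene of β-galactosidase and of the elastin-binding protein spliced from it (8.13 ± 2.17 to 13.2 ± 3.62 FPKM, SD, n = 4 each, limma adjusted p = 0.702). So was 1 of 9 proteases, Ctsl (limma adjusted p = 0.731), and 0 of 8 ADAMTS and ADAMTS-like genes passed. In that study, 3.20% of all genes were called higher.

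**Figure D5:**
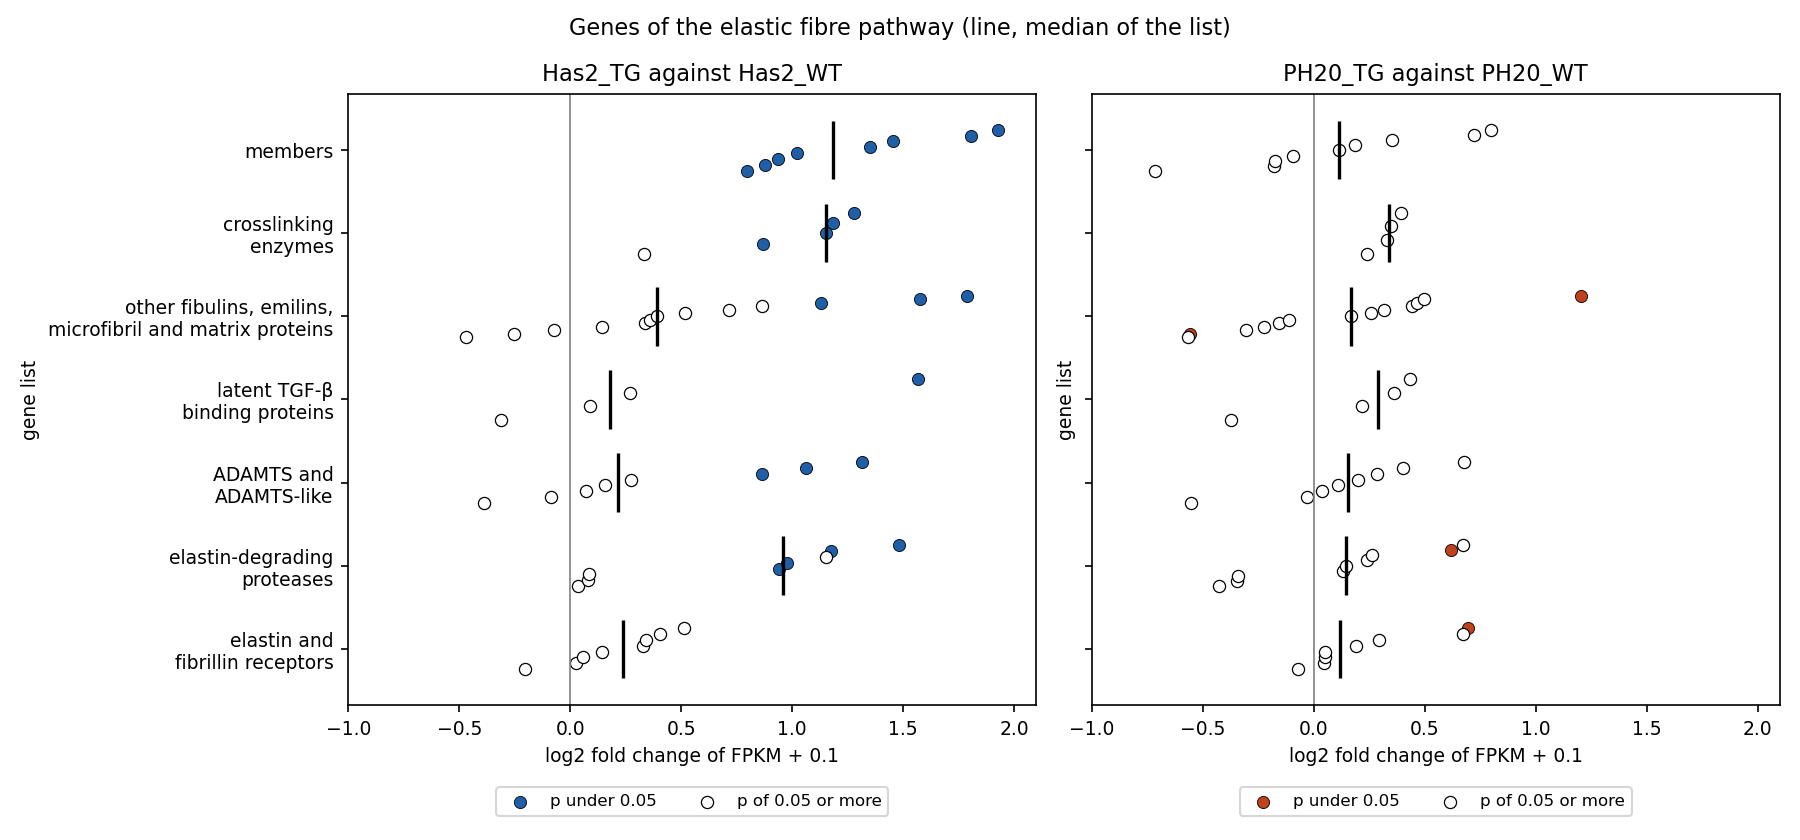
Log2 fold change of FPKM + 0.1 (x axis) of each tested gene in the 7 gene lists (y axis) in the Has2 study (left) and the PH20 study (right), with a black line at each list's median. Filled points passed limma's test at an unadjusted p under 0.05, as 8 of the 8 elastic fibre genes and 4 of 5 crosslinking enzymes did in the Has2 study, and open points did not. Of all genes tested, 6.25% were called higher in the Has2 study.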

How the data were processed

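RNA of iWAT was measured in 16 libraries, 4 per group. According to the study's methods, the authors mapped reads to GRCm38 with STAR (2.7.9a in the submitters' processing notes, with FastQC 0.11.9 and MultiQC 1.12), counted reads per gene with STAR and tested them with DESeq2. The authors deposited FPKM for 54532 genes with each gene's length. FPKM multiplied by gene length gave whole reads in 100% of the values (tolerance 0.01). The library total behind each FPKM was 0.886 to 1.14 times the reads recovered, so the values carry a scaling between libraries. Whether counting used the strand is not given in the sources used here. The kit was the Illumina TruSeq RNA kit.

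Each study was fitted on its own 8 libraries with limma (3.58.1, R 4.3.3) on log2(FPKM + 0.1) with a variance trend, two-sided. Genes averaging under 50 reads over the libraries were left out, p-values under 0.05 were called without adjustment as in the study's methods, and p-values were adjusted over all genes tested. The pseudocount understates changes of low genes. Counting intervals and the floor of 3 reads at 0 reads cover counting error only. Where nothing says that the 4 samples of a group came from separate litters or cages, p-values measure only the spread between these libraries. The ratio of Fbn2 to Fbn1 was planned but not computed, since Fbn2 had 0 reads in 6 libraries, so ratios were adjusted over 6 comparisons. Ratios and genes below the minimum were tested by exact permutation over libraries (scipy 1.17.1, Python 3.11.15), and correlations by permutation. Fits were also run on simulated counts drawn independently for each gene. That setting held no shift shared by genes within a group, such as the split of PH20_TG. Sequences came from RefSeq, and exon overlaps from GENCODE mouse release 21. The genes and the lists were chosen with earlier results of these data known. All 10 genes are described, together with the 2 genes of smallest p in the Has2 study in each list and the 3 genes most correlated with Eln, Fbn1 and Mfap5. Genes named as called in a list of few calls were chosen after their values were seen. The alternatives changed the pseudocount (1), the filter (none, or a mean FPKM from 1 upwards), the scaling, or used voom weights, no variance trend, a replicate block, marker scores as covariates, all 16 libraries in one fit and each library left out.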

Additional observations from a re-analysis of the deposited data

Results flagged for a closer look

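Mfap2 in Has2_WT4 was at 5.79 FPKM, while the other Has2_WT libraries lay between 3.94 and 4.04, and the gap took up 0.948 of the range of the group. Has2_WT4 was the highest Has2_WT library for all 8 tested genes, and without it the Mfap2 log2 fold change was 1.15 in place of 1.02. Fbn2 in Has2_TG2 was at 0.0172 FPKM, which is 3 reads, against 0 reads in the other Has2_TG libraries, and such a gap is within counting error. Chance marks about 1 in 20 of such gene and group sets, of which 40 were checked. The Has2 effect of Fbln1 exceeded its PH20 effect by 2.52 on the log2 scale (limma adjusted p = 0.606), and it stayed between 1.97 and 3.07 when each of the 16 libraries was left out in turn.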

How the results depend on the processing

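In the Has2 study 7 to 8 genes were called higher when each library was left out in turn. With the progenitor and fibroblast score as a covariate 1 was (Mfap2), and Eln turned to -0.066. The count was 6 with a B cell covariate and without the B cell-rich controls, 7 in one fit of all 16 libraries and 8 under the other alternatives run. Limits were the 4 libraries per group, the split of PH20_TG and the few reads of Mfap4 and Fbn2.

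In the PH20 study, where 0 genes were called, leaving out 1 library gave 0 to 1. The count was 1 (Mfap4) when the B cell score was adjusted for and without the 4 control libraries rich in B cell markers, an alternative chosen after seeing the data, and 6 with the progenitor score. Under the skeletal muscle score, the B cell score, the progenitor score and without those 4 libraries, in this order, the log2 fold change turned to 0.051, 0.21, 0.20 and 0.16 for Efemp1, to 0.62, 0.41, 0.44 and 0.36 for Fbn1 and to 0.61, 0.53, 0.41 and 0.47 for Mfap5, and Fbln1 turned to 0.24 under the muscle score. With single libraries left out it ranged from -0.61 to 0.35 for Efemp1, -0.83 to 0.54 for Fbn1, -0.68 to 0.54 for Mfap5, -0.14 to 0.53 for Efemp2 and -0.087 to 0.31 for Fbln5. The causes of these shifts were not tested.

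The responses of the studies differed for 1 to 5 genes with single libraries left out (3 without Has2_WT4, Has2_TG1 or PH20_WT2, and 5 without PH20_TG1 or PH20_TG4), and for 0 without the 4 B cell-rich libraries, where Mfap4 turned to -0.093. The control groups differed for 1 to 3 genes, and for 0 without those 4. With single libraries left out, the Has2_TG minus Has2_WT difference in mean log2 Eln to Fbn1 ratio ranged from -1.35 to -0.90. The same difference for Efemp1 to Efemp2 ranged from 0.27 to 0.53 (exact permutation p = 0.0286 without Has2_TG2). Without any 1 Has2_TG library the Eln to Fbn1 ratio had an exact permutation p = 0.0571.

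Libraries of the same replicate number did not deviate together in every pair (r = -0.18 to 0.13 in the Has2 study and -0.04 to 0.42 in the PH20 study), so the numbers were not taken as pairs. With a replicate block, 2 genes were called higher in PH20_TG (Mfap2 and Mfap4), 3 differed between the studies, 4 differed between the control groups, and the Eln to Fbn1 difference of -1.13 had an exact sign-flip permutation p = 0.125, the smallest for 4 pairs.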
